A study of Mus musculus with 6 samples.

Results

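The transcripts of mitochondrial ribosomal proteins were followed in RNA-seq data of white adipose tissues (WATs) from 3 control and 3 Ntsr2 AKO mice. The members were the genes whose symbol is Mrpl or Mrps followed by a number, with an optional letter, without the -ps suffix of pseudogenes and with 10 or more normalized counts on average over the 6 mice. They numbered 76 of the 21456 genes listed, 47 of the large subunit (Mrpl) and 29 of the small subunit (Mrps). All 76 symbols of that form passed the minimum, and 1 pseudogene, Mrps36-ps1, was left out. Ntsr2 encodes neurotensin receptor 2, a receptor for the peptide neurotensin. Control mice carried Ntsr2 flox/flox alleles without Cre. Ntsr2 AKO mice carried the same alleles with Adipoq-cre, which is active in adipocytes of white and brown fat and not in the other cells of the tissue. All 6 mice were fed a chow diet. The age of the mice, their strain and the fat depot are not given in the sources used here. The replicates are numbered 3, 4 and 5 in each group, and nothing in the labels ties a control mouse to an Ntsr2 AKO mouse of the same number.

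Mitochondria carry ribosomes of their own, which translate the few mRNAs of the mitochondrial genome into subunits of the respiratory chain and ATP synthase. The mitoribosome is built from 2 ribosomal RNAs of the mitochondrial genome, mt-Rnr1 in the small and mt-Rnr2 in the large subunit, and from many proteins that are encoded in the nucleus, translated in the cytosol and imported. The small subunit binds the mRNA and decodes it, and the large subunit forms the peptide bond and is held at the inner membrane. Some of the proteins have bacterial counterparts and others were gained by mitochondria. In adipocytes, mitochondria serve fatty acid oxidation, lipogenesis and, in brown and beige cells, thermogenesis.

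The libraries held 54085088 to 66098226 reads assigned to genes, recovered from the deposited values. The members together took 0.300%, 0.334% and 0.277% of the reads in control replicates 3, 4 and 5, and 0.304%, 0.345% and 0.377% in Ntsr2 AKO replicates 3, 4 and 5. The lowest member of any mouse had 816 reads, so the number of mice limited the precision, not the read count. The targeted gene Ntsr2 had 83.8, 64.0 and 152.5 normalized counts in controls and 3.10, 8.29 and 0 in Ntsr2 AKO mice, a log2 difference of -4.81. Adipocyte markers were high in every mouse, with a summed level of 2365888 to 3439496 normalized counts and no marker at 0. Markers of skeletal muscle, a tissue rich in mitochondria, summed to 3080280 in control replicate 5, to 102605 and 221685 in Ntsr2 AKO replicates 4 and 5, and to 3061 to 3633 in the other 3 mice. Of the 12 muscle markers, 8 were at 0 in some mouse. Control replicate 3 stood apart in lymphocyte markers, with a sum of 901 against 237 or less in the other mice, and in epithelial markers, with 191 against 0 to 11.5. The RNA came from whole tissue, so fewer cells of a type and less RNA per cell cannot be told apart.

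Promoter sequence is shown for 4 of the members described below, since transcripts of this family are known to be under the control of nuclear respiratory factors. The windows run from 120 bases before to 30 bases after the RefSeq start of transcription (GRCm38.p6). They were taken from the named members with no annotated exon in the 120 upstream bases. Mrpl20 also met this rule and is not printed. Each is written 5′ to 3′ on the strand of the gene, with capitals marking a match to CCGGAAG, the core bound by ETS factors such as GABPA, on either strand. Mrps22 (chr9:98601650-98601799, minus strand) and Mrpl34 (chr8:71464806-71464955, plus strand) held this motif, and Mrps2 (chr2:28467946-28468095, plus strand) and Mrpl45 (chr11:97315596-97315745, plus strand) held none of the 6 motifs searched.
Mrps22: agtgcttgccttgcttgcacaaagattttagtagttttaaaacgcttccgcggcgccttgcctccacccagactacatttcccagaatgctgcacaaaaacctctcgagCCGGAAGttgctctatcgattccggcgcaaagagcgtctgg
Mrpl34: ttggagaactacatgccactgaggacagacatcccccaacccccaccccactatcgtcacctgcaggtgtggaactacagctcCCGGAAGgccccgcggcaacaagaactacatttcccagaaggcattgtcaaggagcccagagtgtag
Mrps2: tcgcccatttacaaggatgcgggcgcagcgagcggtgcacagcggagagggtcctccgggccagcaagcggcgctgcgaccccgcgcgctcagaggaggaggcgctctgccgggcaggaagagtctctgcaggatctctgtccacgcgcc
Mrpl45: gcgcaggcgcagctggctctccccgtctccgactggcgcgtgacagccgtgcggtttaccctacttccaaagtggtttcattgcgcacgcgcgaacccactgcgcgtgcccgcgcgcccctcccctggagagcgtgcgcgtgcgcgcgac

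RefSeq promoters of 300 bases, from 250 before to 50 after the start, were at hand for 67 of the 76 members, with 73 promoters in all. The ETS motif CCGGAAG was found on either strand in 32.9% of them, against 8.86% of all 32851 promoters and 15.2% of the 14460 promoters of the genes tested. GCGCATGCG, a core of the site of the nuclear respiratory factor NRF1, was found in 9.59% of the members' promoters, 1.75% of all promoters and 3.19% of those of the genes tested. AAGATGGCG, a core of the YY1 site, was found in 8 of the 73 promoters of the members, 1.40% of all promoters and 2.51% of those of the genes tested. The GC box GGGCGG was in 52.1% of the members' promoters and in 58.6% of those of the genes tested, and the TATA box TATAAA was in 6.85% and 7.74%. The CCAAT box CCAAT was in 41.1% of the members' promoters and in 37.1% of those of the genes tested. Between the subunits, the ETS motif was in 28.3% of large and 40.7% of small subunit promoters, and the GC box in 43.5% and 66.7%. These are matches of letters, and no binding was measured.

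RNA-seq analysis showed no member of the mitoribosome that passed an adjusted p of 0.05 between Ntsr2 AKO and control mice. Over all 16157 genes tested with limma, 0.00619% of genes passed (1 gene). DESeq2 on the recovered reads called 1.38% of the genes to which it gave an adjusted p, and edgeR called 0% of genes. Each of these tools called 0 of the 76 members, and the lowest adjusted p of any member was 0.523 with limma, 0.218 with DESeq2 and 0.582 with edgeR. At an unadjusted limma p under 0.05, 1 member was lower in Ntsr2 AKO mice, Mrps18b, where 5.27% of all genes were. No member was higher at that threshold (limma, 0 of 76), where 3.08% of all genes were, and edgeR and DESeq2 likewise put 1 member in all under it.

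The differences of the members were small and mostly above 0. The log2 difference, Ntsr2 AKO minus control, ranged from -0.48 to 0.49 with a median of 0.08, against a median of -0.01 over all genes tested. It was above 0 for 55 of the 76 members (72.4%) and for 49.0% of all genes. The interval of 95% included 0 for 75 members and lay within 1 on the log2 scale in both directions for 75 members, all except Mrpl27, and within 0.5 for 42. The median interval reached 0.37 to either side of the estimate, against 0.56 over all genes. The difference was under the spread within groups for 57 of the 76 members, with a median absolute difference of 0.11 beside a median within-group SD of 0.19 on the log2 scale. The same held for 10141 of all 16157 genes tested, with medians of 0.23 and 0.30. The lean above 0 rested on single mice. Without Ntsr2 AKO replicate 5 the median of the members was -0.01, with 37 members above 0, and without control replicate 3 it was 0.02, with 40 above 0. Without control replicate 4 it was 0.17, with 64 above 0, and without Ntsr2 AKO replicate 3 it was also 0.17, with 60 above 0. After quantile normalization the median was 0.17 with 67 members above 0, while the median of all genes moved to 0.05.

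**Figure D1:**
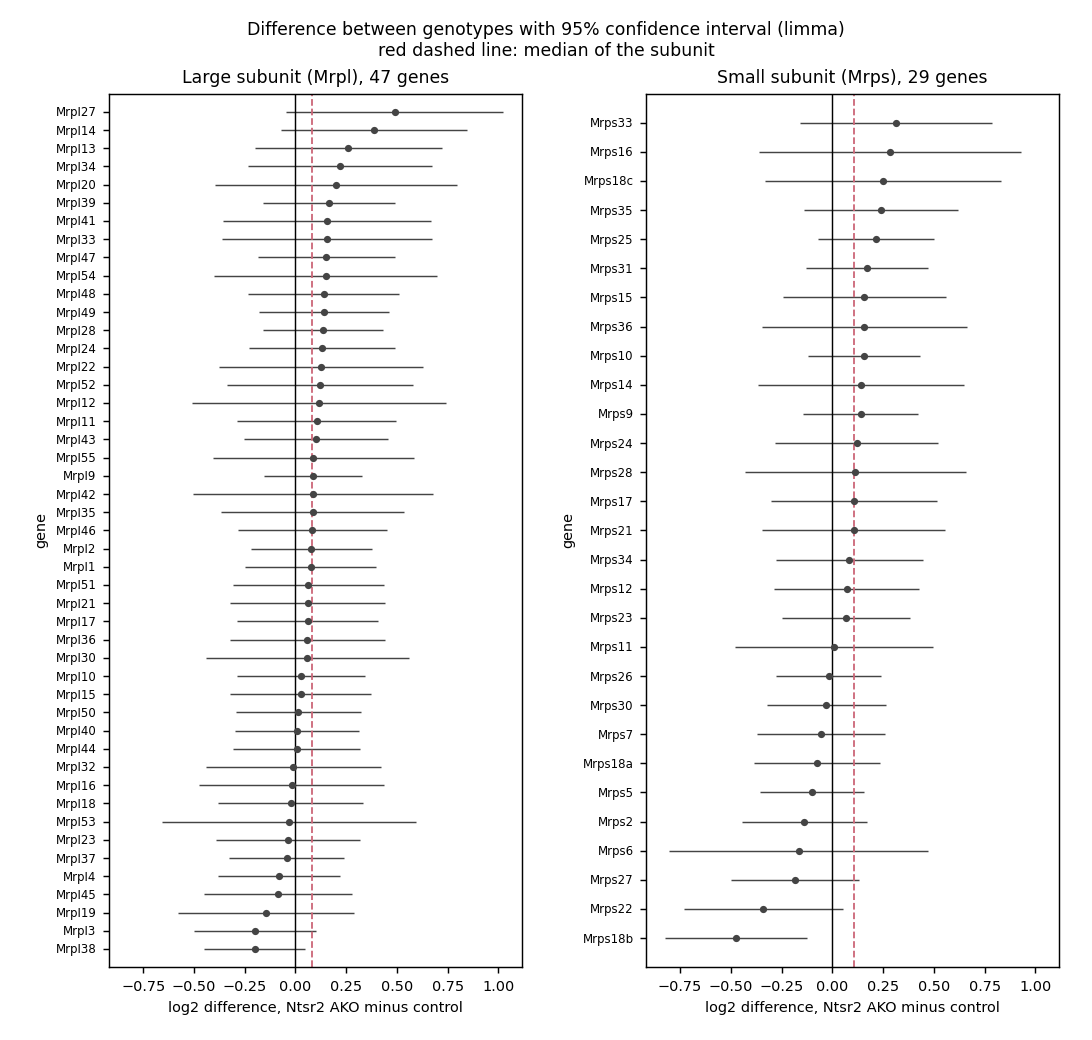
Log2 difference of normalized counts (x axis, Ntsr2 AKO minus control) for each large subunit (left) and small subunit (right) gene, with bars for the 95% confidence interval from limma and a red dashed line at the median of the subunit. The intervals of all 47 large subunit genes and of 28 of the 29 small subunit genes include 0, the exception being Mrps18b.

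The large and small subunits were compared as sums over their members. The summed normalized count of the large subunit was 104377, 134165 and 113127 in control replicates 3, 4 and 5, and 108770, 123373 and 140087 in Ntsr2 AKO replicates 3, 4 and 5. The groups overlapped, with means of 117223 ± 15310 for control and 124077 ± 15671 for Ntsr2 AKO mice (SD, n = 3 each), a ratio of 1.06. The small subunit summed to 63215, 73695 and 62768 in control mice and to 62678, 70140 and 74757 in Ntsr2 AKO mice. These groups overlapped as well, with 66559 ± 6184 and 69192 ± 6095 (SD, n = 3 each), a ratio of 1.04. The balance of the subunits, taken as the large sum over the small sum, was 1.65, 1.82 and 1.80 in control mice and 1.74, 1.76 and 1.87 in Ntsr2 AKO mice. The groups overlapped, at 1.76 ± 0.09 and 1.79 ± 0.07 (SD, n = 3 each), with the lowest value in a control mouse and the highest in an Ntsr2 AKO mouse. With 3 mice in each group an exact two-sided permutation test cannot give a p under 0.1, so these sums were not tested.

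Gene by gene, the subunits also lay close together. Of the 47 large subunit genes, 36 were above 0 and 11 below, with a median log2 difference of 0.08. Of the 29 small subunit genes, 19 were above 0 and 10 below, with a median of 0.10. The difference was under the within-group SD for 39 of 47 large and 18 of 29 small subunit genes, and for 10141 of all 16157 genes tested. By place in the ribosome rather than by name, the products of Mrps30 and Mrps18a sit in the large subunit, and that of Mrps36 is better known from the 2-oxoglutarate dehydrogenase complex. Counting the genes that way changed no count of calls and no direction of a median.

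The level of a member moved from mouse to mouse, and the members moved together. Control replicate 4 was the highest of the control mice for 63 of the 76 members (82.9%), against 32.0% of all genes tested, and control replicate 3 was the lowest for 51 (67.1%), against 34.7%. Among the Ntsr2 AKO mice, replicate 5 was the highest for 58 members (76.3%, against 37.5% of all genes) and replicate 3 the lowest for 54 (71.1%, against 34.0%). Averaged over the large subunit, the log2 level relative to the mean of the 6 mice was -0.18, 0.15 and -0.09 in control replicates 3, 4 and 5, and -0.14, 0.04 and 0.21 in Ntsr2 AKO replicates 3, 4 and 5. The small subunit followed the same order within each group, with -0.12, 0.14 and -0.09 in control mice and -0.11, 0.05 and 0.14 in Ntsr2 AKO mice. A control mouse and an Ntsr2 AKO mouse were thus both among the high mice, and a mouse of each group was among the low ones.

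**Figure D2:**
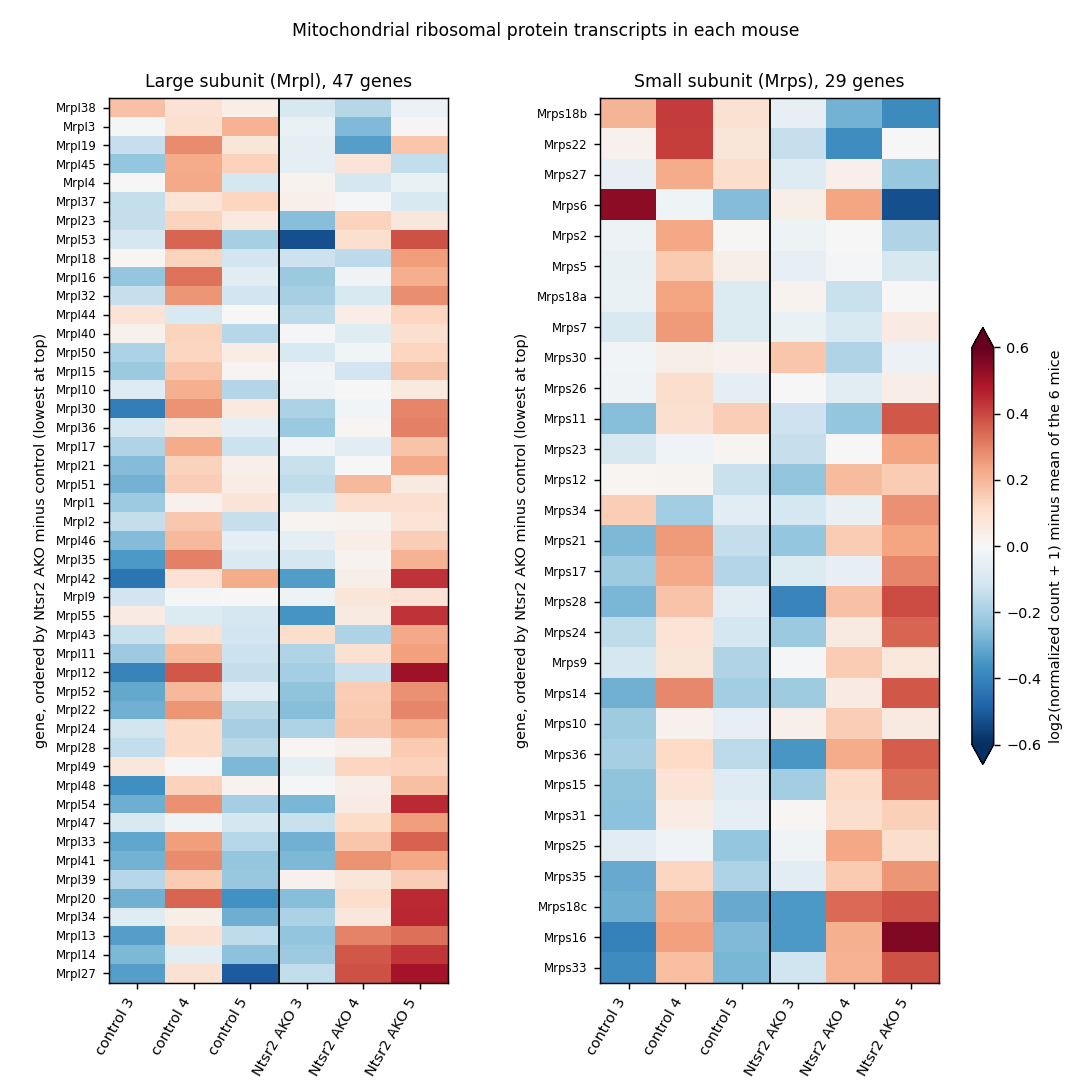
Log2 level of each member (rows, large subunit left and small subunit right) in each mouse (columns), relative to the gene's mean over the 6 mice, with red for higher and blue for lower. Control replicate 4 and Ntsr2 AKO replicate 5 are mostly red and control replicate 3 and Ntsr2 AKO replicate 3 mostly blue, and the top rows of the small subunit, Mrps18b and Mrps22, break this pattern.

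The muscle markers ranked the Ntsr2 AKO mice as both subunits did, with replicate 3 lowest and replicate 5 highest, and ranked the control mice differently. Control replicate 5, with the most muscle RNA, was under the mean of the 6 mice for both subunits, and control replicate 4, among the mice with the least, was above it. With the muscle score as a covariate in limma, the median difference of the members was 0.08, with 53 above 0 and 0 called. The summed level of brown or beige adipocyte markers was 3811, 8061 and 6846 in control mice and 7110, 8319 and 11847 in Ntsr2 AKO mice. Control replicate 3 was thus lowest and Ntsr2 AKO replicate 5 highest in these markers, as in the large subunit mean. The small subunit mean was highest in control replicate 4 (0.140, against 0.137 in Ntsr2 AKO replicate 5). Of these 6 markers, 2 were at 0 in some mouse. The part of beige and brown cells in the differences between mice was not tested.

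Among the small subunit genes, Mrps18b and Mrps22 were lower in every Ntsr2 AKO mouse than in every control mouse, and Mrps10 was higher. With the large subunit gene Mrpl38, 3 members (3.95%) lay apart on the lower side, where 8.16% of all genes did, and 1 member (1.32%) on the higher side, where 6.82% of all genes did. In either direction the share of members was under that of all genes. The separation depended on the scaling between mice. After quantile normalization Mrps18b and Mrps10 were still apart and Mrps22 and Mrpl38 overlapped, and with the median of all genes set equal in each mouse all 4 overlapped.

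Mrps18b (chr17:35910379-35916389, mm10, minus strand) encodes a relative of bacterial S18, one of 3 paralogs in mitochondria. Its normalized count was 1899, 2205 and 1758 in control replicates 3, 4 and 5, and 1595, 1356 and 1266 in Ntsr2 AKO replicates 3, 4 and 5. The means were 1954 ± 228 and 1406 ± 170 (SD, n = 3 each), a log2 difference of -0.48 (SE 0.15, limma adjusted p = 0.523). It was the only member whose interval excluded 0, from -0.83 to -0.13, and its Ntsr2 AKO replicate 5 was the lowest of the 6 mice, where most members had the highest value of their group. Over 30.5% of its exon bases it overlaps the exons of Gm16279 on the other strand, and whether the counting used strand is not given in the sources used here. Its paralogs did not share the difference. Mrps18a had 2116, 2568 and 2055 normalized counts in control mice and 2212, 1984 and 2171 in Ntsr2 AKO mice, a log2 difference of -0.08 (SE 0.13). Mrps18c had 1538, 2190 and 1528 against 1481, 2380 and 2448, a log2 difference of 0.25 (SE 0.24). Over 23.2% of its exon bases Mrps18c overlaps Gm43511 on the same strand. Differences between the paralogs themselves were not tested.

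Mrps18b shares its promoter region with Ppp1r10, a regulatory subunit of protein phosphatase PP1 whose annotated start lies 45 bases away on the other strand. Ppp1r10 had 1346, 1606 and 1794 normalized counts in control mice and 1979, 2717 and 2033 in Ntsr2 AKO mice. It was higher in each Ntsr2 AKO mouse, by a log2 difference of 0.50 (SE 0.18, limma adjusted p = 0.565), where Mrps18b was lower. Ppp1r10 was picked out after its values were seen. In all, 32 members had a protein-coding gene head to head within 1000 bases. The partners Lrrc46 and Twnk were not tested, and the members Mrpl46 and Mrps11, which face each other, were left out as partners. The remaining 28 partners were tested. None passed an adjusted p of 0.05 in limma. At an unadjusted limma p under 0.05, 3 of the 28 were lower and 1 higher, where 5.27% and 3.08% of all genes were. Their median log2 difference was -0.01, and 18 of the 28 had the same sign as their member.

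Mrps22 (chr9:98588730-98601660, mm10, minus strand), a subunit gained by mitochondria and mutated in a human mitochondrial disease, had 1348, 1764 and 1391 normalized counts in control mice and 1201, 1022 and 1323 in Ntsr2 AKO mice. The highest Ntsr2 AKO mouse lay just under the lowest control mouse, and the log2 difference was -0.34 (SE 0.16, limma adjusted p = 0.618). Mrpl38 (chr11:116131817-116138868, mm10, minus strand), a mitochondrial addition to the large subunit, had 3483, 3270 and 3167 normalized counts in control and 2886, 2738 and 3006 in Ntsr2 AKO mice. Its groups were narrow and apart, with a log2 difference of -0.20 (SE 0.10, limma adjusted p = 0.637). Mrps10 (chr17:47368887-47381417, mm10, plus strand), the relative of bacterial S10, had 1791, 2113 and 2004 in control and 2116, 2296 and 2156 in Ntsr2 AKO mice. Its highest control mouse lay just under its lowest Ntsr2 AKO mouse, and the log2 difference was 0.16 (SE 0.12, limma adjusted p = 0.733).

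The other small subunit genes with the smallest p on the lower side were Mrps27, Mrps2 and Mrps5. Mrps27, a pentatricopeptide repeat protein, had 1427, 1720 and 1585 normalized counts in control and 1398, 1504 and 1259 in Ntsr2 AKO mice. It shares 24.2% of its exon bases with a gene on the other strand. Mrps2, the relative of bacterial S2 whose promoter is shown above, had 1468, 1765 and 1508 against 1472, 1504 and 1325. Mrps5, near the mRNA entry site, had 2705, 3108 and 2851 against 2696, 2775 and 2610. All of these groups overlapped, and the log2 differences were -0.18, -0.14 and -0.10. On the higher side, Mrps25 had 3185, 3294 and 2842 normalized counts in control and 3293, 3926 and 3596 in Ntsr2 AKO mice, with 69.8% of its exon bases shared with Nr2c2 on the other strand. Its groups overlapped narrowly, with a log2 difference of 0.21 (SE 0.12, limma adjusted p = 0.664). Mrps33, Mrps35 and Mrps31 had log2 differences of 0.31, 0.24 and 0.17, with overlapping groups. Mrps30 had 2758, 2855 and 2836 against 3128, 2462 and 2723, a log2 difference of -0.03, and its Ntsr2 AKO mice spread wider than its control mice.

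In the large subunit, the genes that leaned highest in Ntsr2 AKO mice were Mrpl27 and Mrpl14. Mrpl27 (chr11:94653767-94660089, mm10, plus strand), the relative of bacterial L27 near the site of peptide bond formation, had 2105, 2823 and 1874 normalized counts in control and 2387, 3446 and 3745 in Ntsr2 AKO mice. Ntsr2 AKO replicates 4 and 5 were above every control mouse and replicate 3 was not, and the log2 difference was 0.49 (SE 0.23, interval -0.05 to 1.03, limma adjusted p = 0.612). Mrpl14, at the face of the large subunit that meets the small one, had 1835, 2116 and 1863 in control and 1900, 2860 and 2978 in Ntsr2 AKO mice. Here too replicate 3 of the Ntsr2 AKO group stayed within the control range, and the log2 difference was 0.39 (SE 0.19, limma adjusted p = 0.624). Mrpl13 had 2528, 3381 and 2861 against 2694, 3906 and 3993, Mrpl39 2007, 2509 and 1931 against 2302, 2380 and 2504, and Mrpl34, whose promoter is shown above, 1592, 1721 and 1367 against 1472, 1758 and 2294. Their log2 differences were 0.26, 0.17 and 0.22, and each had overlapping groups.

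On the lower side of the large subunit, Mrpl3, a core protein near the site of peptide bond formation, had 2318, 2501 and 2700 normalized counts in control and 2276, 1947 and 2344 in Ntsr2 AKO mice. Mrpl19 had 967, 1294 and 1120 against 1025, 846 and 1192, and 36.0% of its exon bases are shared with Gcfc2 on the other strand. Mrpl45, which holds the ribosome at the inner membrane, had 2037, 2795 and 2635 against 2301, 2530 and 2159, and Mrpl4 had 2316, 2708 and 2153 against 2347, 2160 and 2256. The log2 differences were -0.20, -0.15, -0.09 and -0.08, and the groups overlapped for each. For Mrpl4 and Mrpl45, as for Mrps18a above, the sign did not hold, as it turned above 0 after quantile normalization and without control replicate 4, and that of Mrps30 turned after quantile normalization.

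**Figure D3:**
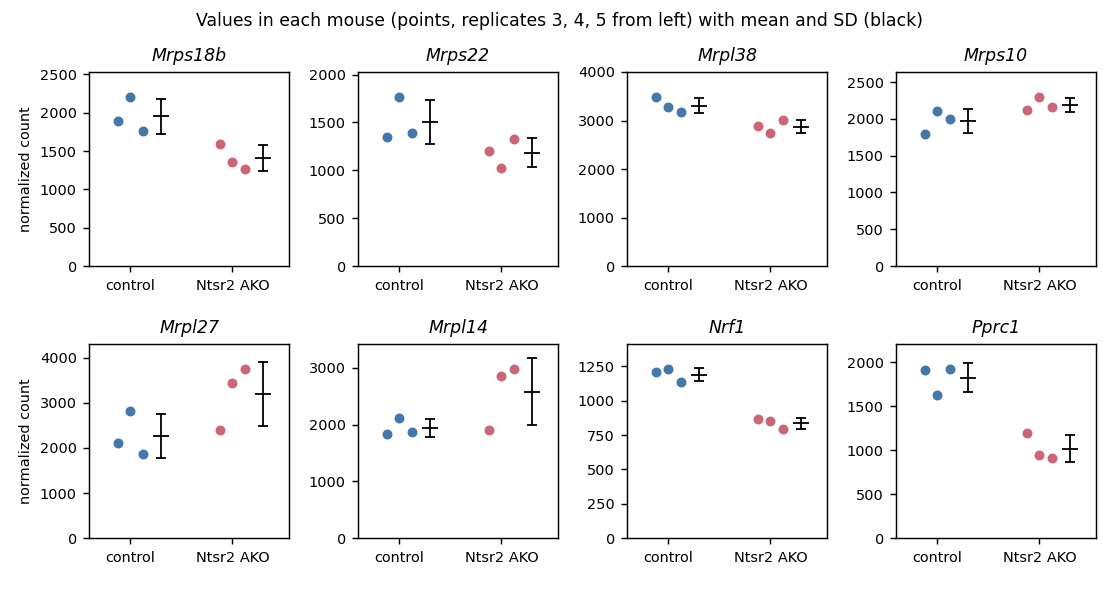
Normalized counts (y axis, from 0) in each mouse for 6 members and for Nrf1 and Pprc1, with points for replicates 3, 4 and 5 from left to right in control (blue) and Ntsr2 AKO (red) mice and black bars for the mean and SD (n = 3). On this deposited scale Mrps18b, Mrps22, Mrpl38, Nrf1 and Pprc1 are lower in every Ntsr2 AKO mouse, Mrps10 is higher (all 4 members overlap after median centring), and Mrpl27 and Mrpl14 overlap through Ntsr2 AKO replicate 3.

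Levels between genes were compared as normalized counts per kb of transcript, with the median length of the annotated coding transcripts. The 76 members spanned from 215 to 8133 per kb. Mrpl20 (8133 ± 2005, SD over the 6 mice), Mrps21 (8024 ± 1336) and Mrpl30 (7832 ± 1425) stood at the top, and these neighbours did not differ beyond their spread. Mrps15 (4506 ± 693) was the second highest of the small subunit. The lowest of the large subunit were Mrpl19 (215 ± 32.3) and Mrpl47 (339 ± 37.0), and the lowest of the small subunit were Mrps35 (456 ± 68.6) and Mrps26 (525 ± 24.0). Mrpl19 in its highest mouse (259) was under Mrpl47 in its lowest (307). The products of the genes named in this comparison enter the ribosome in equal number. The annotated lengths of the 4 low genes run from 3364 to 5000 bases against 446.5 to 662 for the top 3. A length longer than the transcript used in the tissue lowers a value per kb, and which transcripts were used was not tested.

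The members have short transcripts, with a median of 1221 bases against 2656 for all 13816 genes tested with a length. The members below 0 had a median length of 1498 bases and those above 0 of 1056. Split into 3 classes by length, the shortest 26 members (440.5 to 937 bases) had a median log2 difference of 0.12, and all 970 genes of those lengths also had a median of 0.12. The middle 25 (941 to 1537.5 bases) had 0.07, against 0.05 for 1863 genes. The longest 25 (1634.5 to 6073 bases) had 0.06, against -0.04 for 9865 genes. Across genes, which are not independent replicates, Spearman's rho between length and the log2 difference was -0.27 over the 76 members and -0.14 over all genes. Over the members, rho was also taken between length and the log2 level relative to the mean of the mouse's own group. It was 0.54 in Ntsr2 AKO replicate 3 and -0.47 in Ntsr2 AKO replicate 5, against 0.25 and -0.24 over all genes with a length. It was -0.23 in Ntsr2 AKO replicate 4, and 0.07, -0.23 and 0.25 in control replicates 3, 4 and 5. Within the Ntsr2 AKO group, shorter members were thus lower in replicate 3 and higher in replicate 5. Shorter genes at large leaned the same way in these mice, less strongly. The part of transcript length in the members' differences was not tested.

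**Figure D4:**
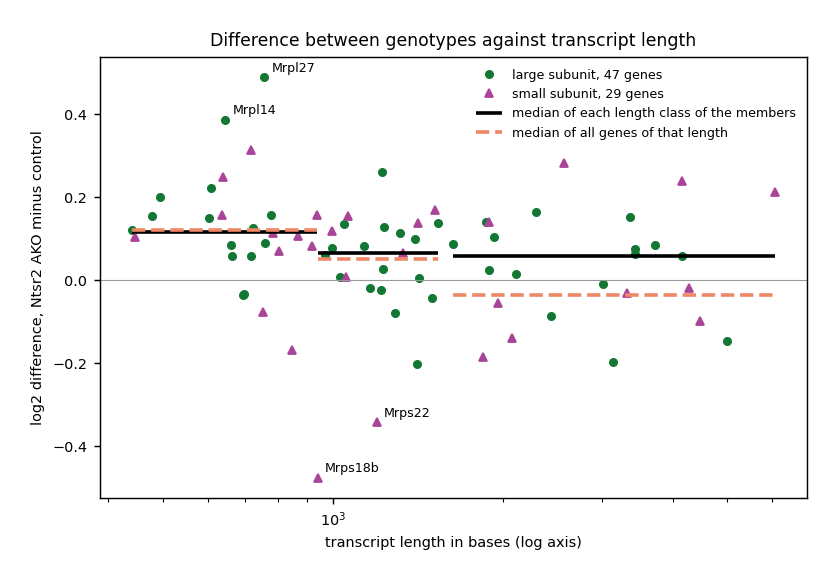
Log2 difference (y axis, Ntsr2 AKO minus control) against transcript length in bases (x axis, log scale) for large (green circles) and small (purple triangles) subunit genes, with the median of each of 3 length classes of the members (black) and of all genes of the same lengths (orange dashed). The 2 medians coincide at 0.12 for the shortest class and part for the longest, 0.06 against -0.04.

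Of the other genes of the pathway, 5 mitoribosome proteins go by other names. Dap3, a GTP-binding protein of the small subunit, had 3564, 4151 and 3364 normalized counts in control and 3944, 3702 and 3765 in Ntsr2 AKO mice. Ptcd3, Chchd1 and Aurkaip1 of the small subunit and Gadd45gip1 of the large subunit overlapped between groups as well. The 5 log2 differences ran from -0.12 for Gadd45gip1 to 0.17 for Chchd1, and none passed in limma at an adjusted p of 0.05 or an unadjusted one (0 of 5). Ict1 and Mrp63, older symbols of proteins since renamed into the Mrpl series and looked up after the other values were seen, had log2 differences of 0.08 and 0.14. The ribosomal RNA mt-Rnr1 had 40143, 79919 and 81076 normalized counts in control and 49814, 60619 and 53546 in Ntsr2 AKO mice, and mt-Rnr2 had 44117, 73887 and 98146 against 48995, 59920 and 48842. Both overlapped between groups, and how ribosomal RNA was treated in the libraries was not examined.

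Of 34 listed assembly factors of the mitoribosome, 27 were tested. They held 0 genes at an adjusted limma p of 0.05 and 1 in each direction at an unadjusted one, with a median log2 difference of 0.09. Of all genes, 5.27% were lower and 3.08% higher at an unadjusted limma p under 0.05. Fastkd2, an RNA-binding protein needed for the large subunit, had 841, 1005 and 1105 normalized counts in control and 705, 723 and 789 in Ntsr2 AKO mice (log2 difference -0.40, SE 0.15, limma adjusted p = 0.565). Mpv17l2, which takes part in assembly, had 1474, 1476 and 1294 against 1667, 1668 and 1855 (0.29, SE 0.12, limma adjusted p = 0.593). Each lay apart between groups in all 6 mice, in opposite directions. Of the 27 factors, 3 lay apart on the lower side and 3 on the higher (11.1% each), where 8.16% and 6.82% of all genes did. Among 14 mitochondrial translation factors, 0 passed the adjusted limma threshold and 1, the initiation factor Mtif2, was higher at the unadjusted one, with 1602, 1484 and 1598 against 1792, 1998 and 1942 (log2 difference 0.29, limma adjusted p = 0.574). Among 20 mitochondrial aminoacyl-tRNA synthetases, 0 passed the adjusted threshold and 1, the tyrosyl enzyme Yars2, was lower at the unadjusted limma p, with 883, 888 and 926 against 773, 633 and 740 (log2 difference -0.33, limma adjusted p = 0.593). The 13 mRNAs of the mitochondrial genome, which the mitoribosome translates, had a median log2 difference of -0.05, with 0 past either limma threshold.

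Among 12 regulators of mitochondrial biogenesis, limma called 0 at an adjusted p of 0.05, while 3 of the 12 were lower, where 5.27% of all genes were, and 0 higher at an unadjusted one. The median log2 difference was -0.12, with 8 below and 4 above 0. Nrf1, the factor behind the GCGCATGCG motif, had 1208, 1229 and 1133 normalized counts in control and 864, 852 and 790 in Ntsr2 AKO mice. Pprc1, a coactivator of the PGC-1 family, had 1915, 1631 and 1921 against 1193, 949 and 908, and Myc, a transcription factor that promotes ribosome production, had 2296, 1562 and 2198 against 1143, 628 and 614. All 3 genes were lower in every Ntsr2 AKO mouse, by log2 differences of -0.51 for Nrf1, -0.85 for Pprc1 and -1.39 for Myc. The limma adjusted p was 0.520, 0.499 and 0.499, and on the recovered reads the DESeq2 adjusted p was 0.0209, 0.00142 and 0.00418. Gabpa had a log2 difference of 0.03, Yy1 of -0.15, the mitochondrial transcription factor Tfam of 0.06 and the coactivator Ppargc1a of -0.53, and none of these was past the unadjusted limma threshold. The mean log2 level of the 12 regulators relative to the 6-mouse mean was 0.05, 0.08 and 0.27 in control and -0.04, -0.07 and -0.30 in Ntsr2 AKO mice. That the groups did not overlap in this mean rested on Nrf1, Pprc1 and Myc. Without them, a choice made after the values were seen, the mean of the other 9 was -0.12, 0.01 and 0.19 in control and 0.0063, 0.10 and -0.19 in Ntsr2 AKO mice, and the groups overlapped.

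The proteins of the cytosolic ribosome, 80 genes, are encoded by short transcripts too and moved between mice much as the members did. Control replicate 4 was the highest control mouse for 75 of them and Ntsr2 AKO replicate 5 the highest of its group for 73. Their mean log2 level relative to the 6-mouse mean was -0.32, 0.15 and -0.04 in control and -0.28, 0.14 and 0.36 in Ntsr2 AKO mice. These means include Rpl3l, with 0, 0 and 4939 normalized counts in control and 0, 191 and 459 in Ntsr2 AKO mice. Its counts lay in the mice with the most muscle marker RNA, and the means were not taken without it. Of the 80 genes, 70 were above 0, with a median log2 difference of 0.13, and 0 passed the adjusted limma threshold. At an unadjusted limma p under 0.05, 1 was lower (Rpl29) and 0 higher, where 5.27% and 3.08% of all genes were. The 13 mRNAs of the mitochondrial genome shared much of this order of the mice. For 11 of them control replicate 4 was the highest control mouse, and for 11 Ntsr2 AKO replicate 5 the highest of its group. For all 13 control replicate 3 was the lowest of its group, and for 8 Ntsr2 AKO replicate 3. Their mean log2 level was -0.46, 0.37 and 0.23 in control and -0.24, -0.09 and 0.19 in Ntsr2 AKO mice. The mean of the assembly factors stayed between -0.04 and 0.08 in the same mice.

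**Figure D5:**
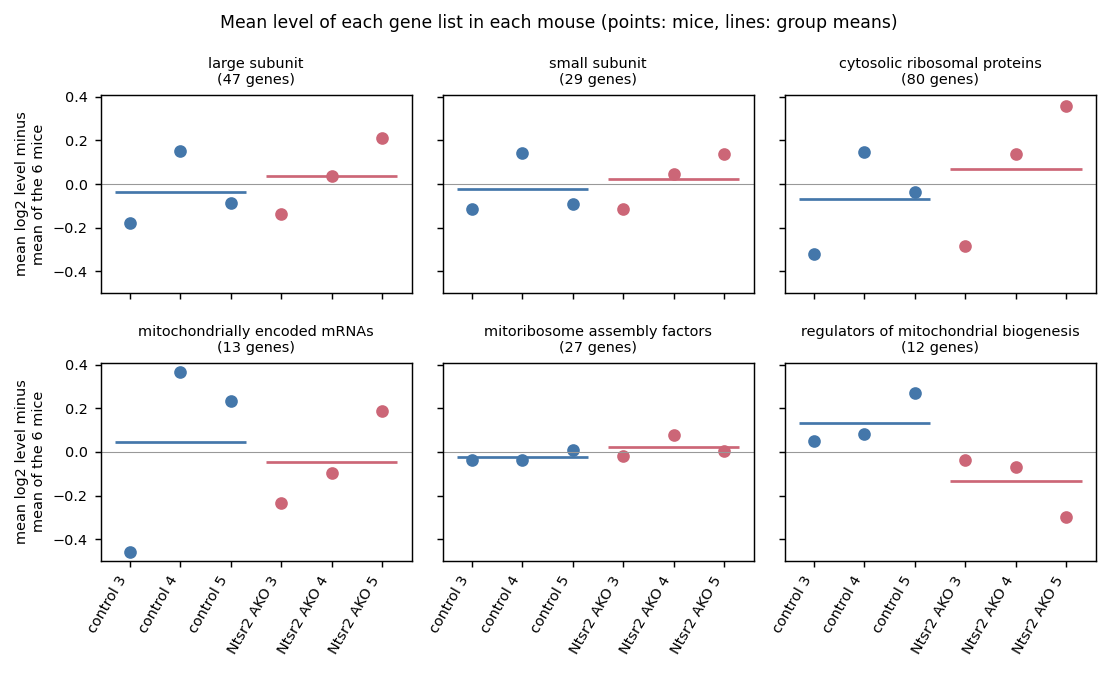
Mean log2 level of each list of genes (panels) in each mouse (x axis), relative to the mean of the 6 mice (y axis), with points for mice and lines for group means in control (blue) and Ntsr2 AKO (red). Both mitoribosome subunits, the cytosolic ribosomal proteins and the mitochondrially encoded mRNAs are lowest in control replicate 3 and Ntsr2 AKO replicate 3 within their groups. The mean of the 12 regulators, carried by Nrf1, Pprc1 and Myc, runs from 0.05 to 0.27 in control and from -0.30 to -0.04 in Ntsr2 AKO mice.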

How the data were processed

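RNA-seq libraries of WATs from 3 control and 3 Ntsr2 AKO mice were analysed. The table deposited by the authors holds a signal, reads per gene scaled by 1 factor for each mouse. This scaling was read from the values, all of which (100%) gave whole reads within 0.01. Their methods name Trimmomatic, HISAT2, StringTie and DESeq2, and the submitters' processing notes name mm10. Annotation and strand of the counting are not given in the sources used here. Every column was assigned to a mouse.

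Values were taken as log2(normalized count + 1), which understates changes of low genes. The 16157 genes with a mean of at least 10 were fitted with limma 3.58.1 in R 4.3.3 (trended eBayes, 6 mice, no covariate, Benjamini-Hochberg adjustment over all genes). edgeR 4.0.16 and DESeq2 1.42.0 used the recovered reads. The fits were tested on simulated data with planted changes larger than any difference of a member. That test does not show how well differences of the members' size are found. Members and lists were chosen with earlier results of these data known. Named genes were, in each subunit, the 5 lower and 5 higher members with the smallest p and the 2 highest and 2 lowest per kb, with the Mrps18 paralogs, Mrps30, and genes of the other lists past an unadjusted p of 0.05 (at most 3 a list). Lengths, positions and overlaps came from GENCODE M21 and promoters from RefSeq (GRCm38.p6). The p-values measure the spread between these mice, and no 2 columns were identical. Alternatives were other pseudocounts, filters, scalings, tools, a muscle covariate, the replicate block and the omission of each mouse.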

Additional observations from a re-analysis of the deposited data

How the results depend on the processing

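No member was called at an adjusted p of 0.05 under any setting, with limma, edgeR or DESeq2 (0 of 76; 1 to 4 members at an unadjusted p under 0.05). Before multiple testing is considered, 3 mice in a group limit what could be seen: the median 95% interval of a member reached 0.37 to either side on the log2 scale. For a count of 0 or 1, the next whole number counts as a move. After quantile normalization, 1 large subunit gene was higher at an unadjusted p under 0.05, 0 large and 1 small subunit genes lay apart on the lower side and 2 small subunit genes on the higher side. After median centring, 0 small subunit genes lay apart on either side, and the large subunit gene apart on the lower side was Mrpl3 in place of Mrpl38. Leaving out each mouse in turn gave 0 to 3 large and 0 to 1 small subunit genes higher at an unadjusted p under 0.05, 1 to 4 large and 2 to 5 small subunit genes apart on the lower side, and 0 to 10 large and 1 to 10 small subunit genes apart on the higher side, where fewer mice make separation easier. The median of the large subunit then ran from -0.01 to 0.17, that of the small subunit from -0.01 to 0.19, and the median of the large minus that of the small subunit (-0.02 with all mice) from -0.040 to 0.016. Sums of Ntsr2 AKO over control ran from 0.990 to 1.14 for the large subunit, from 0.998 to 1.10 for the small one, and from 0.988 to 1.04 for their ratio.

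Single genes near 0 changed sign. After quantile normalization Mrpl4 (0.016), Mrpl45 (0.0011), Mrps18a (0.0094), Mrps30 (0.071) and Ptcd3 (0.064) were above 0, and after median centring Mrps30 (0.0077) and Ptcd3 (0.0013). Leaving out each mouse in turn moved Mrpl4 from -0.15 to 0.013, Mrpl45 from -0.22 to 0.0051, Mrps18a from -0.14 to 0.024 and Ptcd3 from -0.14 to 0.051, each highest without control replicate 4. It moved Mrps30 from -0.12 to 0.052 (without Ntsr2 AKO replicate 4). Dap3 ran from -0.017 to 0.14 and Aurkaip1 from -0.018 to 0.19, both lowest without control replicate 5, and Chchd1 from -0.047 to 0.38, lowest without Ntsr2 AKO replicate 5. The cause was not tested. DESeq2 called Pprc1, Myc and Nrf1, as given above, and the other 575 values of named genes kept their direction and their side of the threshold.

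Whether the replicate numbers pair the mice could not be settled from the values. Deviations from the group means correlated across genes by 0.45, -0.24 and 0.41 between same-numbered mice 3, 4 and 5. Replicates 3 and 5 of each group correlated best with the same number, and replicate 4 with another number. Deviations within a group of 3 mice depend on each other, so these correlations cannot decide it. With the replicate block, the medians were 0.08 for the large and 0.10 for the small subunit, 0 genes of all tested passed an adjusted p of 0.05 (866 lower and 437 higher at an unadjusted limma p under 0.05), and no call of a member changed.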
